A study of Mus musculus with 6 samples.

Results

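The endothelin system was described in the mouse embryonic handpad through the 6 genes chosen by name: the ligand genes Edn1, Edn2 and Edn3, the receptor genes Ednra and Ednrb, and Ece1, the endothelin-converting enzyme. All 6 were among the 34989 genes quantified, and all 6 passed the filter on low counts that left 16938 genes for testing. The handpad is the end of the embryonic forelimb, where the digits form. The series compared 3 handpad samples from Grhl3 knockout (Grhl3KO, Grhl3-/-) embryos with 3 from wild-type (WT) embryos. Both genotypes were labelled C57BL/6 and E14.5 (the embryonic day), and the study concerns epithelial migration, the periderm and the separation of the digits. Grhl3 encodes a transcription factor of the grainyhead family, active in epithelia of the embryo's surface. The labels do not say which part of Grhl3 was deleted, nor whether each replicate is 1 embryo or a pool. The p-values thus rest on sample-to-sample spread that could be technical only among the knockout samples. In WT, replicate 1 was not from the same embryo or pool as replicates 2 and 3, as levels of Y-linked genes show below. Spread between WT replicates 2 and 3 could still be technical.

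Endothelins are short peptides cut from longer precursors. A furin-type protease first releases big endothelin, and endothelin-converting enzymes, of which ECE1 is the best known, then cut it to the active form. The peptides act on a pair of G protein-coupled receptors: EDNRA, which prefers endothelin-1 and endothelin-2 and is known from smooth muscle and mesenchyme, and EDNRB, which binds all the endothelins and is known from melanoblasts, other neural crest derivatives and endothelium. Endothelin-1 is made by vascular endothelium and by many epithelia, and endothelin-3 with EDNRB is needed for melanoblasts to populate the skin.

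The part of each ligand transcript that encodes the mature peptide of 21 residues is shown because it encodes the peptide that defines the family and shows how far the 3 genes differ there. In every ligand gene the stretch of 63 bases lies in exon 2, on the plus strand of GRCm38 (mm10). It is at chr13:42303649-42303711 in Edn1, chr4:120161951-120162013 in Edn2 and chr2:174761749-174761811 in Edn3. The sequences are from GENCODE transcripts, 5′ to 3′, with capitals at the 18 bases that are not the same in all 3 genes.
Edn1: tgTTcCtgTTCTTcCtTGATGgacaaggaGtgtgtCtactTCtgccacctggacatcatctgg
Edn2: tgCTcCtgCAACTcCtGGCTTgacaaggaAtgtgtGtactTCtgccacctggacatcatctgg
Edn3: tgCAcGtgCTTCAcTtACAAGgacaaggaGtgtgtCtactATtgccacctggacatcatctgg
The Edn1 and Edn2 stretches shared 53 of 63 bases, and 3 of their 7 differing codons change the encoded residue. Those of Edn1 and Edn3 shared 50 bases, and those of Edn2 and Edn3 shared 48, with 6 residue changes in each of these pairs. The differences lie mostly in the first part of the stretch, and its last 21 bases are the same in all 3.

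The libraries held 47642524 to 56037639 estimated counts in the Grhl3 knockout and 38052692 to 48984542 in WT. Grhl3 itself measured 3.11, 2.86 and 2.95 CPM (counts scaled to library size) in the knockout libraries, against 14.3, 45.7 and 18.5 CPM in the WT libraries, with no overlap. Over all tested genes, the log2 CPM of WT replicate 1 correlated at 0.982 and 0.983 with WT replicates 2 and 3 and at 0.981 to 0.987 with the knockout libraries, while WT replicates 2 and 3 correlated at 0.993 with each other. Transcripts of Y-linked genes were at 290 CPM in WT replicate 2 and 341 CPM in WT replicate 3, and at 3.37 to 5.36 CPM in the other 4 libraries. Embryo sex and genotype can therefore not be fully told apart. All 12 limb mesenchyme markers were tested, among them the forelimb factor Tbx5 at 113 ± 9.8 CPM in knockout and 133 ± 8.9 CPM in WT libraries (SD, n = 3 each), so markers of the labelled tissue were present in both genotypes.

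Edn1 was the endothelin gene that differed most between the genotypes, and it was higher in every Grhl3 knockout library than in any WT library. The knockout libraries held 622, 390 and 530 Edn1 counts, or 12.6, 8.21 and 9.64 CPM. The WT libraries held 117, 182 and 118 counts, or 3.09, 3.65 and 2.99 CPM. Knockout replicate 1 was the highest of the 6, and the lowest knockout value stood well above the highest WT value. The means were 10.2 ± 2.25 CPM in the knockout and 3.24 ± 0.358 CPM in WT (SD, n = 3 each), a 3.13-fold difference. Edn1 rose by 1.65 on the log2 scale (standard error [SE] 0.20, 95% interval 1.19 to 2.10, adjusted p = 0.0156, edgeR quasi-likelihood test over all genes).

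This contrast was known when the 6 genes were chosen, so the fold changes and adjusted p-values of the members are a description of the fit over all genes and not independent evidence. Of the 6 genes, 1 was called higher, at a false discovery rate (FDR) under 0.05, where 0.348% of all tested genes were called higher, 0.0827% lower and 0.431% in either direction. By p-value Edn1 stood 26th among 16938 genes. The authors' deposited table of the comparison, made with a likelihood ratio test, gives Edn1 a log2 fold change of 1.64 and an FDR of 1.28e-08. Edn1 missed the threshold when knockout replicate 1 (adjusted p = 0.0697), knockout replicate 3 (adjusted p = 0.0673) or WT replicate 3 (adjusted p = 0.133) was removed (edgeR), with its log2 fold change then at 1.46, 1.68 and 1.58. It also missed it with a term for Y-linked expression, at a log2 fold change of 1.70 (adjusted p = 0.0811, edgeR).

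**Figure D1:**
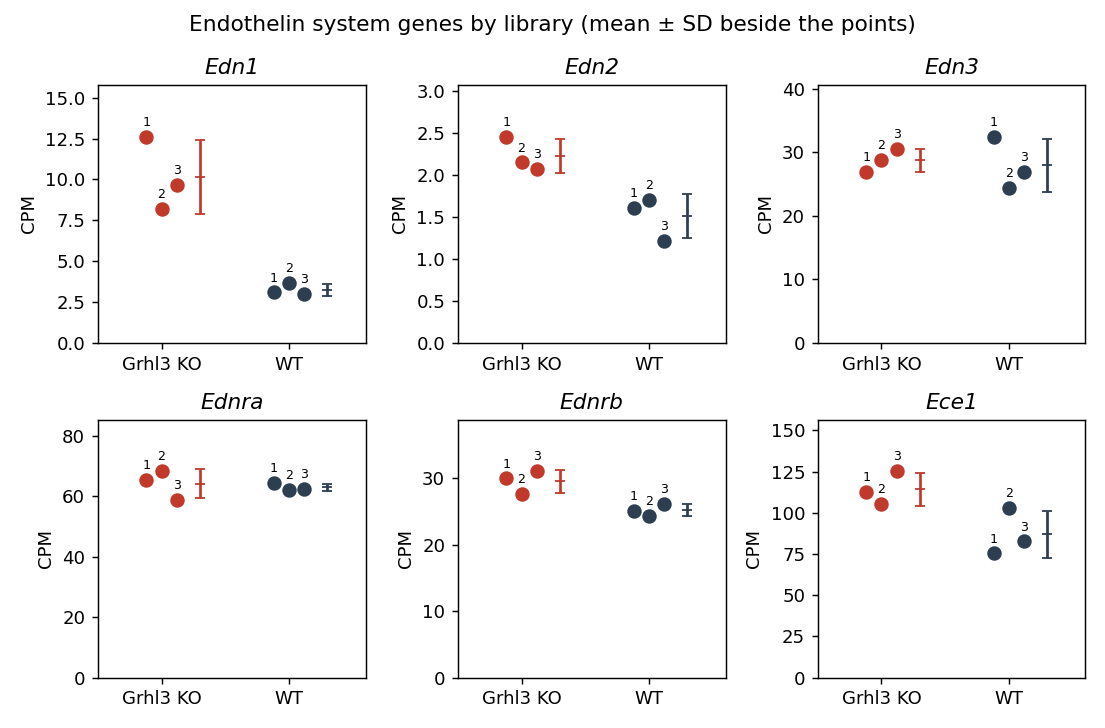
CPM of the 6 endothelin system genes in each library, with replicate numbers above the points, Grhl3 knockout in red and WT in dark blue, and the mean ± SD of each group beside its points (n = 3 each). The Edn1 groups lie far apart, those of Edn2, Ednrb and Ece1 lie close together without overlap, and those of Edn3 and Ednra overlap.

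The other ligands did not pass the test. Edn2, which encodes a vasoactive endothelin known from intestine and ovary, was the least abundant member, with 121, 102 and 114 counts in the knockout and 61, 85 and 48 in WT. It measured 2.46, 2.15 and 2.07 CPM in the knockout libraries, against 1.61, 1.71 and 1.21 CPM in the WT libraries, so the groups did not overlap. Its log2 fold change was 0.56 (SE 0.22, 95% interval 0.05 to 1.07, adjusted p = 0.620, edgeR). The authors' deposited table gives Edn2 a log2 fold change of 0.55 with an FDR of 0.754. Edn3, the ligand of the melanoblast pathway, measured 26.9, 28.8 and 30.5 CPM in the knockout libraries, against 32.5, 24.5 and 26.9 CPM in the WT libraries. The WT libraries held both the highest and the lowest Edn3 value. The log2 fold change of Edn3 was 0.04 (SE 0.13, 95% interval -0.25 to 0.33, adjusted p = 0.994, edgeR), an interval that leaves out changes as large as that of Edn1.

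The make-up of the ligand pool also differed between the libraries of the genotypes. In TPM, kallisto's abundance per transcript length scaled to a fixed total in each library, Edn1 was 36.6%, 26.7% and 29.4% of the summed ligand level in the knockout libraries, against 11.6%, 16.6% and 13.3% in the WT libraries. The Edn3 share was 51.6%, 61.7% and 60.2% in the knockout and 78.5%, 70.6% and 77.7% in WT. Edn3 was the most abundant ligand in all 6 libraries. The summed ligand level was 19.0 ± 1.44 TPM in the knockout and 14.4 ± 0.496 TPM in WT (SD, n = 3 each). These shares use the same contrast that chose the genes and were not tested.

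**Figure D2:**
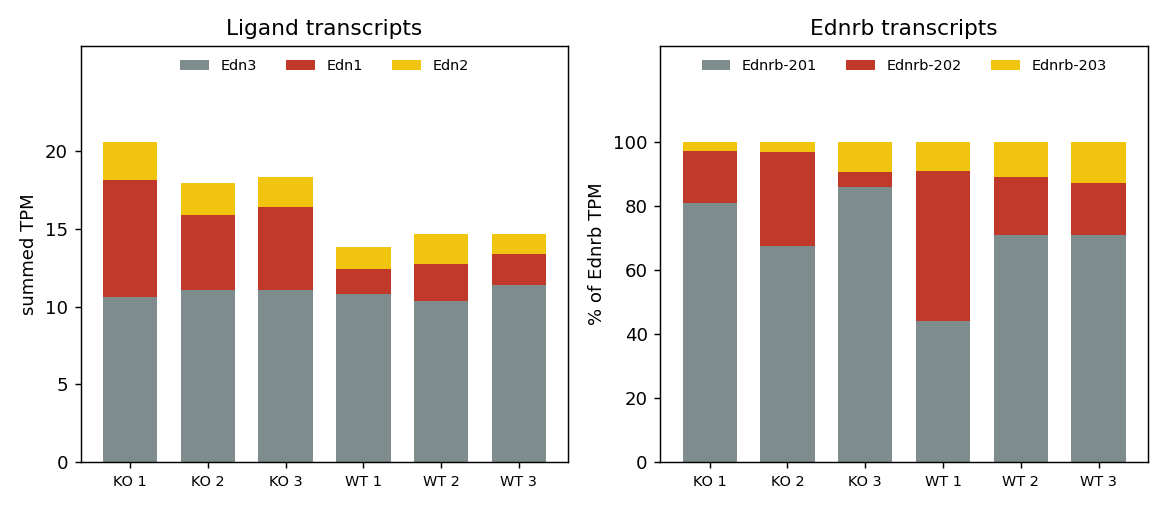
Left, TPM of Edn3, Edn1 and Edn2 stacked by library, and right, the percentage of Ednrb TPM given to each annotated transcript, with knockout libraries left of WT libraries. The Edn3 layer is of like height in all 6 libraries while the Edn1 layer is thicker in the 3 knockout libraries, and Ednrb-201 takes 67.4% to 86.0% in the knockout against 44.0% to 71.0% in WT.

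Neither receptor gene passed the test. Ednra, the receptor gene of mesenchyme and smooth muscle, measured 65.6, 68.3 and 58.8 CPM in the knockout libraries, against 64.4, 62.05 and 62.4 CPM in the WT libraries. All 3 WT values fell within the knockout range. Its log2 fold change was 0.03 (SE 0.09, 95% interval -0.17 to 0.23, adjusted p = 0.994, edgeR). Ednrb, the receptor gene of melanoblasts and endothelium, measured 30.0, 27.7 and 31.1 CPM in the knockout libraries, against 25.1, 24.4 and 26.2 CPM in the WT libraries. The knockout libraries were all higher, by a small margin. The log2 fold change of Ednrb was 0.23 (SE 0.10, 95% interval 0.01 to 0.45, adjusted p = 0.647, edgeR). In TPM the groups of Ednrb overlapped, at 8.49, 7.70 and 8.41 TPM in the knockout and 6.43, 7.91 and 8.44 TPM in WT. The Ednra level was 2.10 to 2.79 times the Ednrb level in the knockout libraries and 2.61 to 2.81 times in the WT libraries.

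Ece1, the gene of the activating protease, did not pass the test. It measured 113, 105 and 125 CPM in the knockout libraries, against 75.3, 103 and 82.7 CPM in the WT libraries. WT replicate 2 lay just below the lowest knockout library, and in TPM it lay within the knockout range, at 26.7 TPM against 26.3, 24.1 and 27.3 TPM in the knockout. The log2 fold change was 0.39 (SE 0.13, 95% interval 0.10 to 0.69, adjusted p = 0.452, edgeR). In the authors' deposited table Ece1 has a log2 fold change of 0.39 and an FDR of 0.294.

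In CPM, 4 of the 6 genes (Edn1, Edn2, Ednrb and Ece1) had all knockout libraries above all WT libraries, where 6.77% of tested genes did so and 6.16% had all knockout libraries below, and in TPM only Edn1 and Edn2 did. At an unadjusted p under 0.05, the same 4 genes were higher and 0 lower (edgeR), where 3.81% of tested genes were higher, 3.41% lower and 7.22% either. Nothing is read from these counts, since the genes were chosen with the contrast known.

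**Figure D3:**
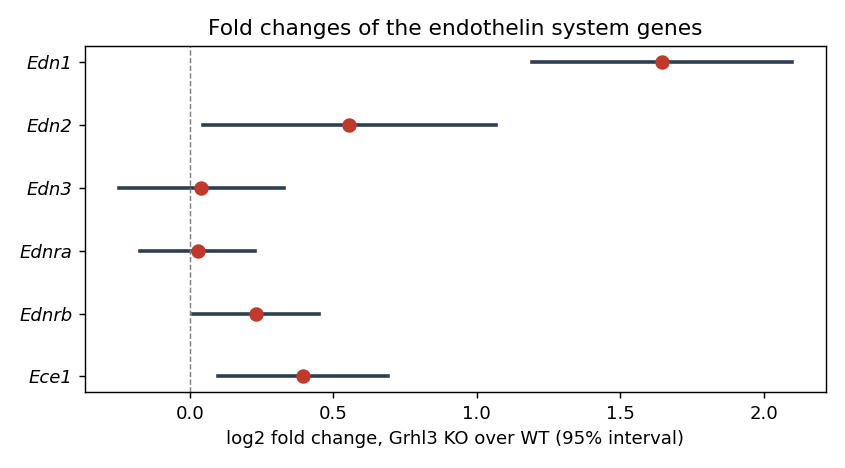
Log2 fold change of each gene, Grhl3 knockout over WT, as points with 95% intervals from the edgeR quasi-likelihood fit. The Edn1 interval, 1.19 to 2.10, lies apart from those of the other 5 genes, and the intervals of Edn3 and Ednra span 0.

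The genes sit on 5 chromosomes, and a pair of them shares chromosome 4 with Grhl3 (GRCm38, GENCODE). Edn1 (ENSMUSG00000021367.8) is on chromosome 13 at 42301476 to 42307990, Edn3 (ENSMUSG00000027524.9) on chromosome 2 at 174760619 to 174784042, Ednra (ENSMUSG00000031616.7) on chromosome 8 at 77663031 to 77724464, and Ednrb (ENSMUSG00000022122.15) on chromosome 14 at 103814625 to 103844402. Edn2 (ENSMUSG00000028635.7) is on chromosome 4 at 120161206 to 120167360, 15.4 megabases from Grhl3. Ece1 (ENSMUSG00000057530.14) is on the same chromosome at 137862237 to 137965229, only 2.29 megabases from the deleted gene. Within 2.5 megabases of Grhl3, 29 of 93 tested genes, or 31.2%, had groups that did not overlap in CPM (18 higher and 11 lower in the knockout), where 12.9% of all tested genes did. Of these 93 genes 1 was called, Htr1d, and Ece1 stood 12th by p-value. This window was set after the values were seen, and the part of its position in the Ece1 value was not tested.

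The level of each gene per transcript length was compared across all 6 libraries, which does not use the contrast between genotypes. Ece1 was at 25.9 ± 1.67 TPM in the knockout and 21.1 ± 5.65 TPM in WT, and Ednra at 20.1 ± 2.10 and 20.8 ± 2.33 TPM in knockout and WT (SD, n = 3 each). Edn3 was at 10.9 ± 0.247 TPM in the knockout and 10.9 ± 0.535 TPM in WT, ahead of Ednrb at 8.20 ± 0.436 and 7.59 ± 1.04 TPM in knockout and WT. Edn1 was at 5.91 ± 1.45 TPM in the knockout and 1.997 ± 0.413 TPM in WT, and Edn2 at 2.14 ± 0.264 and 1.52 ± 0.307 TPM in knockout and WT. The enzyme and the EDNRA receptor gene thus stood at the top of the order and 2 ligand genes at its foot.

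Between neighbours in this order, 4 of 5 pairs kept the same order in 6 of 6 libraries. Ednra was 1.87 times Edn3, Edn3 was 1.38 times Ednrb, Ednrb was 2.32 times Edn1, and Edn1 was 1.89 times Edn2, as geometric means. Each of these 4 pairs had an adjusted p of 0.0391 over the 5 pairs (exact two-sided sign-flip test over libraries, unadjusted p = 0.0312, the smallest that 6 libraries allow). The order was set from the mean of these same 6 libraries. The p-values are thus not independent evidence for it. With 6 libraries this p follows whenever all 6 ratios have the same sign, so it restates that count and does not measure their spread. The SD of the log2 ratio was 0.15 for Edn3 over Ednrb and 0.82 for Ednrb over Edn1, at the same p. Ece1 was above Ednra in 4 of 6 libraries, by 1.13 times, and this pair did not pass the exact test (adjusted p = 0.219). The ratios of Edn1 to its neighbours did not overlap between the genotypes: Ednrb was 1.12 to 1.603 times Edn1 in the knockout libraries and 3.25 to 4.29 times in the WT libraries. Edn1 in turn was 2.31 to 3.10 times Edn2 in the knockout libraries and 1.17 to 1.48 times in the WT libraries. Unlike the order, these ranges by genotype do use the contrast. They restate the Edn1 difference that was known when the genes were chosen, are not a further result and were not tested.

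**Figure D4:**
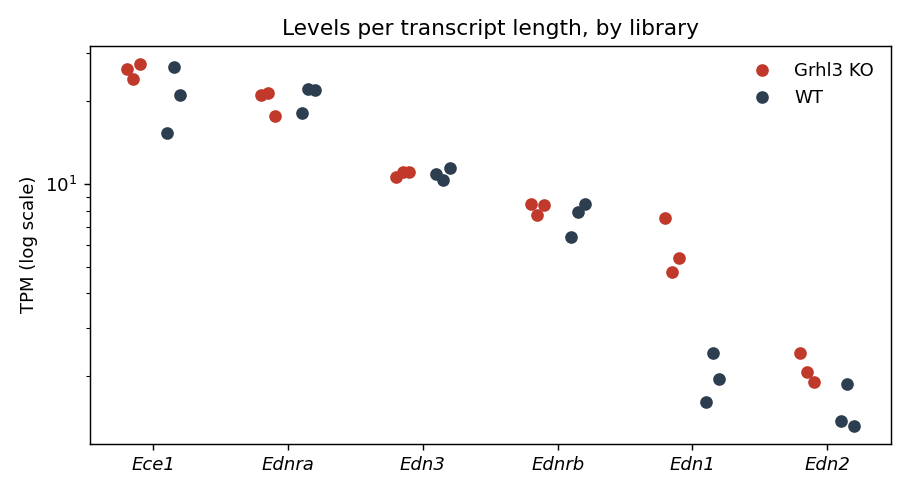
TPM of the 6 genes in each library on a log axis, ordered by the mean over the 6 libraries, with Grhl3 knockout points left of WT points. Ece1 and Ednra overlap at the top, and Edn1 lies close to Edn2 in WT libraries and close to Ednrb in knockout libraries.

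Among the annotated transcripts, 1 carried nearly all of the signal in each gene except Ednrb. Edn1 and Edn2 have a single quantified transcript each. Ece1-201 took 100% of Ece1 TPM in all 6 libraries, and the other 3 Ece1 transcripts, with shorter or no coding parts, were listed at 0. Ednra-201 took 96.7% to 96.9% of Ednra TPM in the knockout and 95.7% to 98.5% in WT, with the rest given to a retained-intron transcript. Edn3-201 took 93.4% to 97.4% of Edn3 TPM in the knockout and 96.5% to 100% in WT.

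The 3 Ednrb transcripts have identical coding parts of 1326 bases and differ in their first exon and 3′ end. Ednrb-201, which starts at an upstream exon that encodes no protein, took 81.0%, 67.4% and 86.0% of Ednrb TPM in the knockout libraries, against 44.0%, 70.9% and 71.0% in the WT libraries. Ednrb-202 took 16.1%, 29.3% and 4.67% in the knockout, against 47.0%, 18.2% and 16.1% in WT. The groups overlapped for Ednrb-202 and Ednrb-201, and WT replicate 1 stood apart from the other 5 libraries in both. The division between transcripts is kallisto's estimate and comes without an error, so the shares were not tested.

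The promoters, 250 bases before to 50 after each RefSeq start (GRCm38.p6), were searched on both strands for short motifs, and all 6 genes had an entry, Ece1 with 4 starts. The grainyhead motif AACCNGTT was in none of the 9 windows, and it was in 2.09% of 32851 promoters. The AP-1 motif TGANTCA, in 7.81% of promoters, and the box TATAAA, in 13.6%, were in none of the 9 windows either. The hypoxia response core ACGTG, in 19.6% of promoters, was found in Edn1 at 22 bases after the start and in Ece1 at 89 and 90 bases before 1 of its inner starts, where matches on both strands overlap. These are matches of letters only, and sites farther from the start were not searched.

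Genes that act with the endothelins were read from 4 lists, where 0.431% of all tested genes were called in either direction (edgeR quasi-likelihood test). At an unadjusted p under 0.05, 3.81% of all tested genes were higher and 3.41% lower. At these shares lists this short would hold few calls or none, so the counts of 0 below are not a result about these genes. The same shares apply to the marker lists further below. Of 12 proteases that can process endothelin precursors or peptides, or are relatives of these, 0 were called with the edgeR quasi-likelihood test, and 1 was higher and 0 lower at an unadjusted p under 0.05. DESeq2, limma-voom and the likelihood ratio test also called 0. Mcpt4, a mast cell chymase, measured 2.80 ± 1.54 CPM in the knockout and 1.20 ± 0.714 CPM in WT, and Ece2, the sister enzyme of Ece1, 5.89 ± 1.54 and 7.86 ± 3.18 CPM in knockout and WT (SD, n = 3 each). Kel, a protease known to cut big endothelin-3, measured 2.27 ± 1.37 CPM in the knockout and 1.19 ± 0.477 CPM in WT, and the mast cell chymase Cma1 35.6 ± 17.1 and 23.0 ± 8.92 CPM in knockout and WT (SD, n = 3 each). The groups overlapped in all 4. Over the list the median log2 fold change was 0.06, beside -0.004 over all genes.

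Of 25 genes of G protein signalling below the receptors, 0 were called by any of these 4 tests, and 1 was higher and 1 lower at an unadjusted p under 0.05 (edgeR; list median 0.01). Itpr3, an inositol trisphosphate receptor, measured 53.8 ± 5.63 CPM in the knockout and 40.1 ± 8.11 CPM in WT, and Grk3, a receptor kinase, 19.0 ± 2.82 and 24.5 ± 2.86 CPM in knockout and WT (SD, n = 3 each). The arrestins Arrb1 and Arrb2 had log2 fold changes of 0.16 and -0.17. Adjusted p-values of these 4 genes ran from 0.535 to 0.918 (edgeR).

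Of 12 transcription factors known from branchial arches as targets of EDNRA signalling, or as their partners, 0 were called by any of the 4 tests, and 0 were higher and 2 lower at an unadjusted p under 0.05 (edgeR). Of the 12, 2 had positive fold changes, and the list median was -0.13. Mef2c measured 93.8 ± 5.50 CPM in the knockout and 114 ± 11.3 CPM in WT (adjusted p = 0.533), and Dlx5 10.7 ± 0.450 and 13.7 ± 2.54 CPM in knockout and WT (SD, n = 3 each, adjusted p = 0.685, edgeR). Dlx6 and Barx1 had log2 fold changes of -0.34 and -0.31. Several of these factors have other roles in the limb.

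Of 25 genes of other vasoactive peptide systems, 20 were tested, 0 were called by any of the 4 tests, and 0 were under an unadjusted p of 0.05 (edgeR; list median -0.10). Npr2, a natriuretic peptide receptor of growing cartilage, measured 74.4 ± 4.37 CPM in the knockout and 87.0 ± 8.67 CPM in WT, and its ligand gene Nppc 0.650 ± 0.114 and 0.994 ± 0.216 CPM in knockout and WT (SD, n = 3 each). Vipr2 and Ramp2, receptor components for VIP and adrenomedullin, had log2 fold changes of -0.37 and 0.16. Adjusted p-values of these 4 genes ran from 0.692 to 0.785 (edgeR).

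Calls among the cell type markers were in surface epithelium and in pericytes and vascular smooth muscle (edgeR quasi-likelihood test), and the summed levels of other marker lists are given beside them. In bulk tissue fewer cells of a type and less RNA per cell cannot be told apart. The 13 surface epithelium markers summed to 3008 to 4413 CPM in the knockout and 1410 to 2329 CPM in WT, and 4 of 13 were called higher (Krt8, Krt17, Krt6a and Krt18, edgeR). That count was 2 without WT replicate 3, 8 without WT replicate 2, 10 with DESeq2, 8 with the likelihood ratio test and 4 with limma-voom. Their list median was 0.86, and 12 of 13 had positive fold changes. Markers that are not keratins were mixed. Epcam, Cdh1 and Cldn4 had log2 fold changes of 0.75, 0.79 and 0.86, with groups that did not overlap (edgeR). Esrp1, Trp63 and Grhl2 had log2 fold changes of -0.001, 0.18 and 0.36, with groups that overlapped (edgeR). With libraries scaled on the 6 markers of that list that are not keratins, an alternative chosen after the data were seen, the median of all genes was -0.56 and Edn1 had a log2 fold change of 1.10 (95% interval 0.42 to 1.78), which did not pass (adjusted p = 0.0559, edgeR).

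The 12 blood endothelium markers summed to 507 to 555 CPM in the knockout and 451 to 462 CPM in WT, with 0 called by any of the 4 tests, 3 higher at an unadjusted p under 0.05 and a list median of 0.20 (edgeR). Cdh5, the endothelial cadherin, measured 112 ± 4.95 CPM in the knockout and 91.7 ± 5.08 CPM in WT, and Tek, the angiopoietin receptor, 34.5 ± 3.41 and 27.2 ± 1.82 CPM in knockout and WT (SD, n = 3 each). Fold changes were positive in 10 of the 12 markers, while Egfl7 and Erg had log2 fold changes of -0.08 and -0.01 (edgeR). Groups did not overlap in 5 of the 12, where 12.9% of all tested genes had groups that did not overlap. Of 11 pericyte and vascular smooth muscle markers, Tagln alone was called, at 81.1 ± 22.3 CPM in the knockout and 26.8 ± 6.63 CPM in WT (SD, n = 3 each, adjusted p = 0.0320, edgeR). That list summed to 646 to 747 CPM in the knockout and 525 to 624 CPM in WT. Its median was 0.18, and 9 of 11 markers had positive fold changes (edgeR). The markers were mixed in size and direction. Myh11, Acta2 and Cnn1 had log2 fold changes of 0.96, 0.83 and 0.54, while Rgs5, Des and Cspg4 had 0.09, -0.06 and -0.24 (edgeR). The list had 0 calls without knockout replicate 1, knockout replicate 3, WT replicate 2 or WT replicate 3, with the Y-linked term and with effective length offsets. It had 3 calls with DESeq2, 2 with the likelihood ratio test and 2 without WT replicate 1. Tagln and other contractile genes are also expressed outside vessels.

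Of 10 melanoblast markers 7 were tested and 0 called (edgeR), with 2 higher at an unadjusted p under 0.05, while DESeq2 and the likelihood ratio test called 1. All 7 had positive fold changes, and the list summed to 42.1 to 51.4 CPM in the knockout and 34.5 to 38.9 CPM in WT. Most of these sums was Kit, which is also in the macrophage and mast cell list. Kit measured 31.3 ± 2.27 CPM in the knockout and 25.4 ± 2.73 CPM in WT (SD, n = 3 each). Pmel, a pigment cell protein, measured 3.34 ± 0.767 CPM in the knockout and 1.43 ± 0.0909 CPM in WT (SD, n = 3 each, adjusted p = 0.0946, edgeR). Schwann cell precursor markers summed to 189.0 to 216 CPM in the knockout and 170.2 to 189.3 CPM in WT, ranges that touch, with 0 of 10 called by any of the 4 tests and 1 higher at an unadjusted p under 0.05. Cartilage markers summed to 1970 to 3109 CPM in the knockout and 3261 to 4674 CPM in WT, with 0 of 9 called (edgeR), 3 lower at an unadjusted p under 0.05, and 1 called by DESeq2 and by the likelihood ratio test. The summed ranges of limb mesenchyme, skeletal muscle, macrophage and mast cell, and erythroid markers overlapped between the genotypes, with 0 called (edgeR, DESeq2, limma-voom and the likelihood ratio test). Every marker was detected in at least 1 library. The part of these markers in the values of the endothelin genes was not tested.

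Over the 6 libraries the genes whose log2 CPM most resembled that of Edn1 were Krt79, Spib and Rhou, each with a Pearson correlation of 0.996. This likeness is of shape and not of size: Krt79, a keratin, spanned 3.32 to 5.799 on the log2 CPM scale in the knockout and -0.41 to 0.03 in WT, while Rhou, a small GTPase, spanned 5.93 to 5.98 in the knockout and 5.83 to 5.85 in WT. Edn2 was most like Shq1, Pum3 and Tbcd (0.995 to 0.996), and Edn3 most like Ptpn18, Tspan3 and Msrb1 (0.994 to 0.995). Ednra was most like Prickle1, Ccnd2 and Cmpk2 (0.968 to 0.989), and Ednrb most like Rassf9, Galnt6 and Ahnak2 (0.980 to 0.983). Ece1 was most like Fem1a, Ddr1 and Kit (0.990 to 0.993). Among 13276 candidate genes, the number that correlated above 0.95 was 111 for Edn1, 46 for Edn2, 275 for Edn3, 7 for Ednra, 35 for Ednrb and 77 for Ece1. The 6 libraries are 3 of each genotype, and these values are a description with no test.

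**Figure D5:**
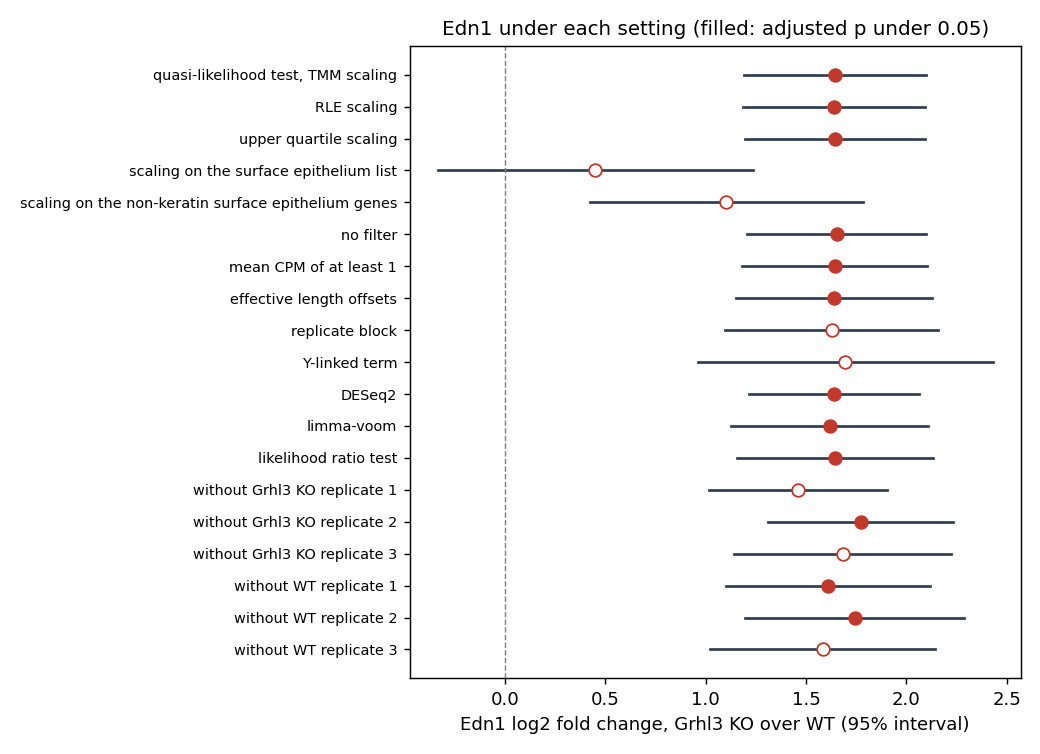
Log2 fold change of Edn1, Grhl3 knockout over WT, with 95% intervals under each way of processing, as filled points where the adjusted p was under 0.05. The values lie between 1.46 and 1.77 except for the scalings on epithelial genes, at 0.45 and 1.10, which lower all genes together.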

How the data were processed

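Polyadenylated RNA of 6 handpad samples was sequenced with a stranded kit, per the labels' protocols. Reads were assigned with kallisto to transcripts of mm10, per the submitters' processing notes, and kallisto's version and the transcript set were not given in the sources used here. The deposited tables hold unnormalized estimated counts, TPM and lengths of 111462 transcripts, per the file headers. For 941 genes a deposited table of the authors' own comparison holds log2 fold changes, a likelihood ratio score, p-values and FDR, per the file headers.

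Transcripts were matched to GENCODE M21, where 110203 matched and the others held 0.504% to 0.566% of counts and were left out. Estimated counts were summed per gene and rounded. Knockout and WT were compared with edgeR 4.0.16 (R 4.3.3): TMM scaling, filterByExpr (minimum count 10, minimum total 15), quasi-likelihood test with genotype as the only term, Benjamini-Hochberg adjustment over all 16938 genes, FDR under 0.05. Fold changes are knockout over WT, and CPM values use the TMM scale. Gene levels were compared on summed TPM, with 0.01 added in log ratios, by an exact sign-flip test. The script was tested on simulated counts. Depth limits Edn2 most, and without molecular identifiers reads are not independent molecules, so precision from depth covers counting error only.

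The members and gene lists were chosen with earlier results of these data known. Genes named are the 6 members, Grhl3, up to 4 genes of a list by smallest p, and the 3 genes most like each member by Pearson correlation of log2(CPM + 0.5), at a mean of at least 1. Some further markers of surface epithelium, of blood endothelium and of pericytes and vascular smooth muscle were named to show the spread within those lists. DESeq2 1.42.0, limma 3.58.1, other scalings, filters, a replicate block, a Y-linked term and the removal of each library were alternatives.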

Additional observations from a re-analysis of the deposited data

Results flagged for a closer look

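Edn3-204, an Edn3 transcript annotated without a coding part, received 9.998, 28.9 and 17.0 estimated counts in the Grhl3 knockout libraries, 55.9 in all, and was listed at 0 in all 3 WT libraries. It took 1.93% to 5.43% of Edn3 TPM in the knockout. Its counts are part of the Edn3 sum compared by gene, and the transcript was not compared on its own. A kallisto estimate of 0 for a transcript that overlaps others is not a count of 0, so no fold is given, and the difference was not tested.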

How the results depend on the processing

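Of 16938 genes tested, 73 were called (59 higher, 14 lower). The count was 299 with DESeq2, 260 with the likelihood ratio test, 45 with limma-voom, 118 with no filter, 44 with effective length offsets and 113 at an FDR under 0.1. It ran from 10 (without WT replicate 3) to 206 (without WT replicate 1) when 1 library was left out. With libraries scaled on the surface epithelium list it was 15271 (67 higher, 15204 lower), a scaling that moved the median of all genes to -1.20. On the 6 markers of that list that are not keratins it was 410 (84 higher, 326 lower) at a median of -0.56.

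The number of endothelin genes called was 1. It was 0 with the replicate block, with the Y-linked term and on the 6 non-keratin markers, 4 on the surface epithelium list, and 0 to 1 when 1 library was left out. Edn1 kept a positive fold change in every alternative run, with adjusted p from 1.81e-11 (DESeq2) to 0.269 (surface epithelium list). On that list Edn2, Edn3, Ednra, Ednrb and Ece1 turned to -0.61, -1.17, -1.15, -0.98 and -0.77, so each was above the median of all genes at -1.20. On the non-keratin markers Edn3, Ednra, Ednrb and Ece1 turned to -0.55, -0.53, -0.33 and -0.12, above the median of -0.56. With the Y-linked term Edn3 and Ednra turned to -0.19 and -0.011. When 1 library was left out, Edn3 ran from -0.045 (without WT replicate 2) to 0.16 (without WT replicate 1), with -0.0049 without knockout replicate 3. Ednra ran from -0.021 (without knockout replicate 2) to 0.089 (without knockout replicate 3).

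The labels do not say whether samples of the same number were paired. Deviations from the group means correlated at -0.33, -0.10 and -0.23 for numbers 1, 2 and 3, which gave no sign of pairing. With 3 libraries per group these correlations cannot settle the question. With the replicate block 47 genes were called, and Edn1 had a log2 fold change of 1.63 (adjusted p = 0.0593, edgeR).

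In the order of levels, leaving out 1 library leaves 5, for which the exact test cannot go below 0.0625. The mean log2 ratio then ran from 0.09 to 0.26 for Ece1 over Ednra, 0.86 to 0.95 for Ednra over Edn3, 0.41 to 0.50 for Edn3 over Ednrb, 1.04 to 1.42 for Ednrb over Edn1 and 0.77 to 1.05 for Edn1 over Edn2. In WT libraries alone Ece1 over Ednra was -0.0083. The causes of these shifts were not tested.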
